A study of Bos taurus with 6 samples.

Results

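The miR-30 family is a group of mature miRNAs that share the bases with which a miRNA recognises its targets. Its members were taken by name from the deposited miRNA counts of cow milk extracellular vesicles (EVs), as every listed miRNA called bta-miR-30 with a letter from a to f, with or without an arm suffix. The rule found 6 members among 276 known miRNAs, named as in miRBase, and among 779 known and predicted miRNAs in all. They were bta-miR-30a-5p, bta-miR-30b-5p, bta-miR-30c, bta-miR-30d, bta-miR-30e-5p and bta-miR-30f, and no 3p arm was among them.

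The milk came from 6 Holstein cows in mid lactation, on average 101 ± 10 days in milk, which were all kept in climate chambers at 20 °C. The control cows (n = 3) were fed a total mixed ration (TMR). The replacement cows (n = 3) got less alfalfa hay and, in its stead, soybean hull and whole cotton seed. Each cow gave 1 small RNA library and ate 1 diet, so the diets were compared between different animals, and no label says that the cow numbers mark pairs. The level of a miRNA is given as its share, in percent, of the counts of all known miRNAs of a cow. A read stands for 1 whole mature miRNA, so a comparison of different members needs no length term. How evenly the library steps captured different sequences was not measured, so an order of members is an order of counts.

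In animals, a miRNA guides a silencing complex to messenger RNAs that pair with its seed, the bases from the second to the eighth. The miR-30 family is known from other work for keeping cells in an epithelial state through the transcription factor SNAI1, for restraining autophagy through BECN1 and for a role in adipocyte differentiation through RUNX2. In the mammary gland, overexpression of miR-30b in mice is known to disturb lactation. None of these targets was measured here.

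The mature sequences are shown because they define the family and because some members differ by so little that their reads are hard to keep apart. They are written 5′ to 3′ with T for U, as deposited, and the seed is in capitals.
bta-miR-30d: tGTAAACAtccccgactggaagct
bta-miR-30e-5p: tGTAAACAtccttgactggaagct
bta-miR-30a-5p: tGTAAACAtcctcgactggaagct
bta-miR-30b-5p: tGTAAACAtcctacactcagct
bta-miR-30c: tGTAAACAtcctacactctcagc
bta-miR-30f: tGTAAACAccctacactctcagct
All 6 members carried the same seed. After the seed they fell into 2 groups by sequence. The last bases of miR-30a, miR-30d and miR-30e were the same, while those of miR-30b, miR-30c and miR-30f were only related. Over the whole sequence, miR-30b was 3 differences from miR-30c and from miR-30f, which were 2 apart. Positions are counted from 1 at the 5′ end. Between bta-miR-30a-5p and bta-miR-30d the only change was T12C, and between bta-miR-30a-5p and bta-miR-30e-5p it was C13T. Next to the seed, bta-miR-30f was the exception, with T9C against bta-miR-30c and 1 more base at the 3′ end. How reads that match several of these members were counted is not given in the sources used here, so the counts of miR-30a, miR-30d and miR-30e are uncertain to the extent that reads were exchanged between them. Among the other 773 listed sequences, known and predicted, 0 held the seed at any position, and the nearest differed from a member at 8 places. Among the listed sequences the seed thus belonged to the 6 named members alone.

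In the RefSeq gene table of the cow assembly ARS-UCD2.0, each of the 6 members had 1 gene, and these genes lay as 3 pairs of neighbours. On chromosome 14, MIR30D stood next to MIR30B. On chromosome 3, MIR30E stood next to MIR30C, both within NFYC, which encodes a subunit of a transcription factor that binds CCAAT boxes. On chromosome 9, MIR30F and MIR30A were each other's nearest miRNA gene, and MIR30A lay within an uncharacterized protein-coding gene, LOC132346186. The pairs of neighbours thus joined 1 member of each sequence group. The authors aligned to ARS-UCD1.2, so no coordinates are given.

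The libraries held 61156 to 176919 counts of known miRNAs, which made up 15.8% to 42.0% of all listed counts. Control cow 2 and replacement cow 1 had the most counts of known miRNAs, with 161240 and 176919. A count of 0 at these depths allows a share of at most 0.0017% to 0.00491% (3 counts), and confidence intervals and such limits cover counting error only, since copies made by PCR are not independent molecules. Control cow 3 stood apart in red blood cell miRNAs. There the 5 listed miRNAs of that marker list, led by bta-miR-486, bta-miR-451 and bta-miR-92a, held 20.0% together, against 6.46% to 10.9% in the other cows. Of 10 mammary epithelial markers, bta-miR-148a was counted in every cow, with 326 to 1329 counts, and so were bta-miR-182 with 3 to 79 and bta-miR-183 with 5 to 39. Of the miR-200 family, which defines epithelium, bta-miR-200a had 0 to 92 counts in a cow, bta-miR-200c 0 to 28, bta-miR-429 0 to 13, bta-miR-141 0 to 11 and bta-miR-200b 0 to 1, and bta-miR-205 had 0 to 48. These epithelial markers were named after their values were seen. The leukocyte list held 1.84% to 3.07%. In such bulk libraries, fewer EVs from a cell type and fewer copies in each EV cannot be told apart.

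Together the 6 members made up 5.18% ± 1.11 (SD, n = 6) of the known counts of a cow. They held 4.55%, 5.69% and 3.77% in control cows 1 to 3, and 7.04%, 4.97% and 5.06% in replacement cows 1 to 3. Replacement cow 1 was the highest and control cow 3 the lowest, and the diets overlapped. The control mean was 4.67% ± 0.969 (SD, n = 3) and the replacement mean 5.69% ± 1.17 (SD, n = 3), a difference of 1.02 percentage points that was smaller than the SD of the 6 cows. This difference was 0.344 without replacement cow 1 and 0.570 without control cow 3, and 1.53 without control cow 2. With the red blood cell miRNAs left out of the total, the difference was 0.916 percentage points. As a part of all listed counts, known and predicted, the family held 0.976%, 1.65% and 0.594% in control cows 1 to 3 and 2.96%, 1.75% and 1.30% in replacement cows 1 to 3. The diets overlapped on this total too. Here the means were 1.07% ± 0.534 (SD, n = 3, control) and 2.00% ± 0.858 (SD, n = 3, replacement), and the difference of 0.929 percentage points was larger than the SD of the 6 cows, 0.817.

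The family share was higher in the libraries with more counts of known miRNAs. These counts do not give the sequencing depth, since the total reads per cow ran only from 12130660 to 13369168. Across the 6 cows, the log2 of the family share and the log2 of the known counts gave r = 0.892 (exact permutation p = 0.0111, adjusted p = 0.0389 over 7 relations) and a Spearman rho of 0.829 (exact permutation p = 0.0583, adjusted p = 0.204). Without control cow 2 and replacement cow 1, the cows farthest from the median of the known counts, r was 0.680. For bta-miR-30d alone r was 0.899 (exact permutation p = 0.00556, adjusted p = 0.0389), rho was 0.943 (exact permutation p = 0.0167, adjusted p = 0.117), and r was 0.942 without those 2 cows. For bta-miR-30a-5p the sign was the opposite, with r = -0.960 (exact permutation p = 0.0306, adjusted p = 0.0713), rho = -0.771 (exact permutation p = 0.103, adjusted p = 0.238) and r = -0.790 without those 2 cows. The known counts are also the total on which the shares are based, so a member with steady counts has a lower share where they are higher. The counts of bta-miR-30a-5p ran from 275 in control cow 3 to 442 in replacement cow 1, the cows with the lowest and the highest known counts. Its negative sign is thus that of its share, and no r was computed for its counts. The permutation p-values do not allow for this common total. Each diet had only 3 cows, too few for a value within a diet. The part of the known counts in the levels of the family was not tested.

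Within the family, bta-miR-30d was the highest member in every cow. Its share was 2.33%, 3.02% and 1.99% in control cows 1 to 3 and 4.49%, 2.92% and 2.49% in replacement cows 1 to 3. Replacement cow 1 was above all others, with a 95% Wilson interval of 4.39% to 4.58%, while the other 5 cows overlapped between diets. Its rank among the known miRNAs ran from 5 to 14.

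The next member, bta-miR-30e-5p, which has been studied in fatty acid metabolism of goat mammary cells, held 0.800%, 1.15% and 0.765% in the control cows. Replacement cows 1 to 3 had 1.10%, 1.09% and 1.11%. The replacement cows were almost alike, with an SD of 0.00974 percentage points, and control cow 2 was above all of them, so that the diets overlapped. By shares this member varied least of the family, with a coefficient of variation of 17.1% over 6 cows. Among the 78 other known miRNAs with at least 10 counts in every cow, the median coefficient was 38.8% and 6.41% of them varied less.

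For bta-miR-30b-5p the cows were far apart. Its share was 0.531%, 1.01% and 0.361% in control cows 1 to 3 and 0.936%, 0.336% and 0.623% in replacement cows 1 to 3. Control cow 2 and replacement cow 1 were the highest, and the lowest and the next lowest cow were on different diets. The means of the diets, 0.632% ± 0.334 (SD, n = 3) and 0.632% ± 0.300 (SD, n = 3), were alike within their spread.

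The order of the cows was another one for bta-miR-30a-5p. It held 0.494%, 0.223% and 0.450% in control cows 1 to 3 and 0.250%, 0.350% and 0.514% in replacement cows 1 to 3. Control cow 2 and replacement cow 1, where bta-miR-30b-5p was highest, were here the lowest.

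The remaining members were scarce. The share of bta-miR-30c was 0.139%, 0.245% and 0.101% in control cows 1 to 3 and 0.188%, 0.129% and 0.185% in replacement cows 1 to 3. It rested on 62 counts in control cow 3 and on 395 in control cow 2. The share of bta-miR-30f, the member with a changed base after the seed, was 0.250%, 0.0564% and 0.105% in control cows 1 to 3 and 0.0831%, 0.151% and 0.132% in replacement cows 1 to 3. Control cow 1 was the highest for it and control cow 2 the lowest, 4.42-fold apart, and their Wilson intervals (0.215% to 0.289% and 0.0460% to 0.0693%) did not meet.

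**Figure D1:**
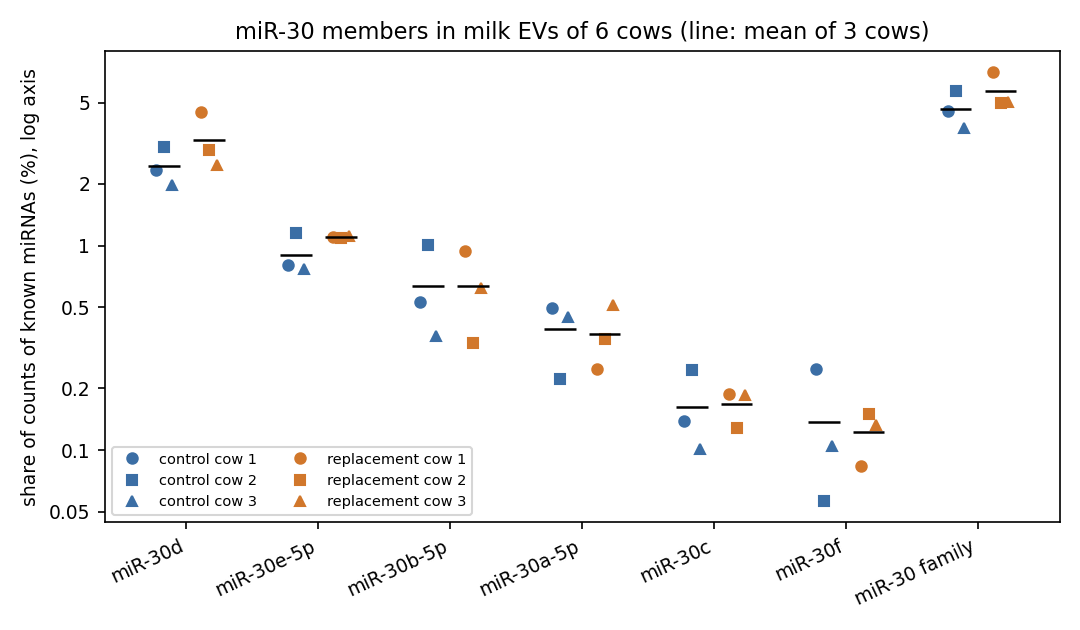
Share of each miR-30 member and of the whole family in the counts of known miRNAs (percent, log axis) in 6 cows, with control cows in blue, replacement cows in orange and a line at the mean of 3 cows. Points of both diets overlap for every member, from bta-miR-30d at 1.99% to 4.49% down to bta-miR-30f at 0.0564% to 0.250%.

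The order of the mean shares was miR-30d, miR-30e-5p, miR-30b-5p, miR-30a-5p, miR-30c and miR-30f, and the 5 neighbouring steps in it were compared within cows, where both members share library and depth. The order was set from the same 6 cows, so the p-values of its steps are a description. The counts of bta-miR-30d were above those of bta-miR-30e-5p in 6 of 6 cows. Their mean log2 ratio was 1.49 ± 0.29 (SD, n = 6), and the two-sided exact sign-flip permutation test gave p = 0.0312, the smallest that 6 cows allow, with an adjusted p of 0.0781 over the 5 steps. The step from bta-miR-30e-5p to bta-miR-30b-5p also had 6 of 6 cows on 1 side and the same p-values, with a log2 ratio of 0.77 ± 0.57 (SD, n = 6). Both steps therefore missed the threshold after adjustment.

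The lower steps did not go the same way in every cow. Counts of bta-miR-30b-5p exceeded those of bta-miR-30a-5p in 4 of 6 cows (log2 ratio 0.68 ± 1.07 (SD, n = 6), adjusted exact p = 0.312). For bta-miR-30a-5p over bta-miR-30c it was 5 of 6 cows (log2 ratio 1.19 ± 0.87 (SD, n = 6), adjusted exact p = 0.104). The last step, from bta-miR-30c to bta-miR-30f, went each way in 3 cows (log2 ratio 0.44 ± 1.06 (SD, n = 6), adjusted exact p = 0.375).

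As a part of the family's own counts, which needs no total of other miRNAs, bta-miR-30d took 54.8% ± 5.38 (SD, n = 6). It took 51.3%, 53.0% and 52.7% in control cows 1 to 3 and 63.7%, 58.7% and 49.3% in replacement cows 1 to 3. The control cows were close together, and the replacement cows lay on both sides of them. The part of bta-miR-30e-5p ran from 15.6% to 22.0% and that of bta-miR-30b-5p from 6.75% to 17.7%. In contrast, the part of bta-miR-30a-5p changed 3.36-fold between its extremes, from 3.55% in replacement cow 1 to 11.9% in control cow 3. That of bta-miR-30f changed 5.54-fold, from 0.991% in control cow 2 to 5.49% in control cow 1. The sequence group of miR-30a, miR-30d and miR-30e held 4.25% ± 0.900 (SD, n = 6) of all known counts. The group of miR-30b, miR-30c and miR-30f held 0.926% ± 0.300 (SD, n = 6).

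**Figure D2:**
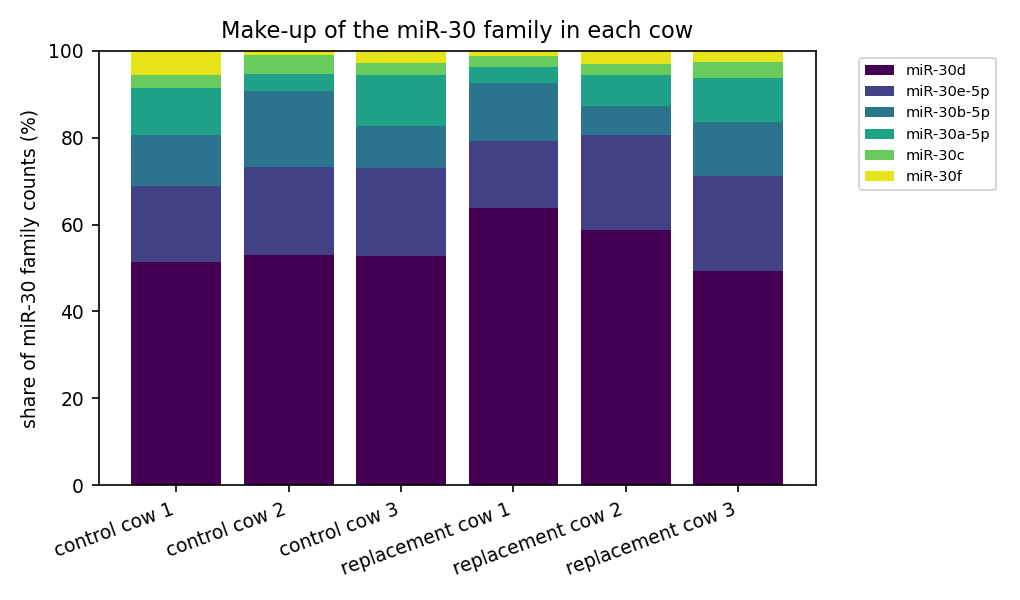
Stacked bars of the percent of all miR-30 counts in each member, 1 bar per cow. The part of bta-miR-30d runs from 49.3% in replacement cow 3 to 63.7% in replacement cow 1, and the thin parts of bta-miR-30a-5p and bta-miR-30f change most in relative terms.

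The ratio of a pair of members within a cow shows which of them kept a steady proportion. Of the 15 pairs, bta-miR-30e-5p over bta-miR-30c, whose genes are neighbours within NFYC, had the smallest range between extremes. Its ratio was 5.76, 4.68 and 7.55 in control cows 1 to 3 and 5.84, 8.47 and 5.99 in replacement cows 1 to 3, a 1.81-fold range. Close to it were bta-miR-30d over bta-miR-30e-5p with a 1.82-fold range and bta-miR-30b-5p over bta-miR-30c with a 1.91-fold range. By the SD of the log2 ratio these 3 pairs were close as well, and bta-miR-30d over bta-miR-30e-5p was the lowest with 0.29, against 0.31 for each of the others. The widest was bta-miR-30b-5p over bta-miR-30f, from 2.12 in control cow 1 to 17.8 in control cow 2, an 8.38-fold range.

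Seen across the 15 pairs, miR-30b, miR-30c, miR-30d and miR-30e stood on one side and miR-30a with miR-30f on the other, a division that was noticed in these values and was not tested. The 6 pairs among the first 4 members had ranges of 1.81-fold to 2.90-fold, and the ratio of miR-30a to miR-30f had a range of 2.17-fold. The 8 pairs across the division had ranges of 3.17-fold to 8.38-fold. The log2 shares showed the same arrangement, with r from 0.537 to 0.913 among the first 4 members, r = 0.791 between miR-30a and miR-30f, and r from -0.767 to -0.445 in the 8 pairs across. It did not hold throughout without the 2 cows farthest from the median share of the first member of a pair, where r was 0.156 for miR-30a with miR-30f, 0.156 for miR-30d with miR-30b and 0.443 for miR-30a with miR-30c. The ratio of a pair in a cow is the same for counts and for shares, so these r values in part restate the ranges. The division also had the signs of the relation with the known counts. There r was -0.960 for miR-30a and -0.691 for miR-30f, and 0.684 to 0.899 for the other 4. Each of the 3 pairs of neighbouring genes lay on 1 side of the division, but neighbours were not always the closest pairs. The neighbours miR-30d and miR-30b had the widest range of these 7 pairs, and miR-30b and miR-30c, the pair with the highest r, lie on different chromosomes and are of 1 sequence group. Of these 15 correlations over 6 cows, 0 passed an adjusted p of 0.05, by Pearson's r or by Spearman's rho. The smallest adjusted p was 0.125, for miR-30b and miR-30c (r = 0.913, exact permutation p = 0.00833, and rho = 0.943, exact permutation p = 0.0167, adjusted p = 0.25). Shares of the same library have a common total, so they are not free of each other. The negative r of the 8 pairs across is one of shares. By counts, bta-miR-30a-5p and bta-miR-30d were both lowest in control cow 3, with 275 and 1215. Both were highest in replacement cow 1, with 442 and 7939. The counts of bta-miR-30f were lowest in control cow 3 too, with 64, but highest in control cow 1, with 176.

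**Figure D3:**
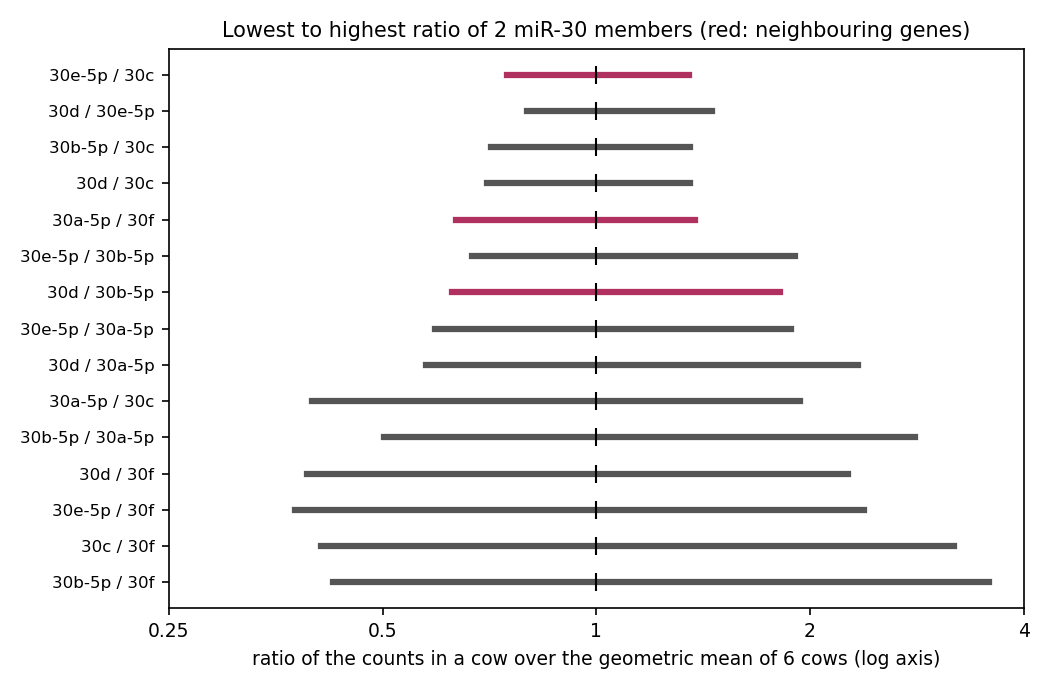
For each of 15 pairs of miR-30 members, the lowest and the highest ratio of their counts in a cow, divided by the geometric mean ratio of 6 cows (log axis), with pairs of neighbouring genes in red. The 7 pairs at the top, with ranges of at most 2.90-fold, are the 6 among miR-30b, miR-30c, miR-30d and miR-30e and the ratio of miR-30a to miR-30f.

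A second scale, the RPM that the authors deposited, relates each count to a single total per cow of 12130660 to 13369168 reads and so does not depend on the other known miRNAs. On this scale bta-miR-30a-5p hardly moved. It had 26.6, 28.6 and 22.1 RPM in control cows 1 to 3 and 33.1, 27.8 and 28.4 RPM in replacement cows 1 to 3. The coefficient of variation over 6 cows was 12.7%, and of the 78 other known miRNAs with at least 10 counts in every cow, 0 were lower (lowest 13.6%, median 55.8%). In the same libraries bta-miR-30b-5p had 28.6, 129 and 17.8 RPM in control cows 1 to 3 and 124, 26.6 and 34.4 RPM in replacement cows 1 to 3. Its coefficient was 86.1%, and 75 of the 78 others were lower.

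The other members lay between these 2. In RPM, bta-miR-30d varied 6.07-fold, bta-miR-30c 6.29-fold and bta-miR-30e-5p 3.90-fold over the cows, each highest in control cow 2 or replacement cow 1. The coefficient of bta-miR-30e-5p, the steadiest member by shares, was 56.5% in RPM, and 40 of the 78 others were lower. For bta-miR-30f the range was 2.61-fold and the highest cow was control cow 1. All known miRNAs together varied 2.69-fold, from 4921 RPM in control cow 3 to 13233 RPM in replacement cow 1. The counts behind bta-miR-30a-5p were 275 to 442, while those of all known miRNAs rose from 61156 to 176919. All 6 members had their lowest RPM in control cow 3, where the known miRNAs together were lowest too. There bta-miR-30f and bta-miR-30c were nearly equal, at 5.15 and 4.99 RPM.

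**Figure D4:**
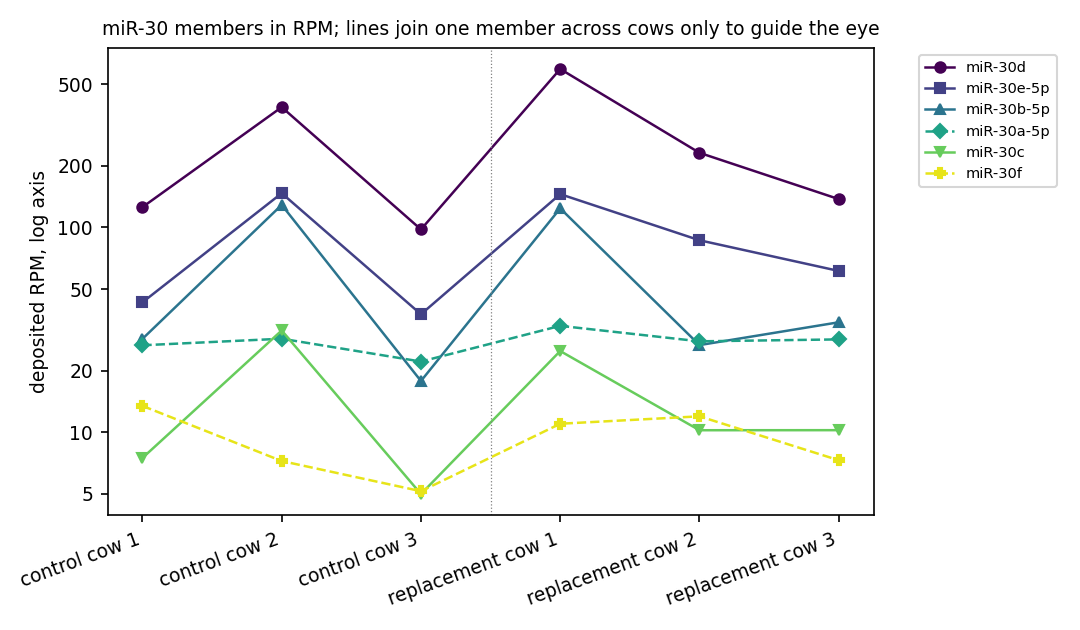
Deposited RPM of the 6 miR-30 members (log axis) in each cow, with dashed lines for bta-miR-30a-5p and bta-miR-30f and solid lines for the rest. The line of bta-miR-30a-5p stays between 22.1 and 33.1 RPM while those of bta-miR-30b-5p, bta-miR-30c and bta-miR-30d peak in control cow 2 and replacement cow 1.

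The effect of the diet on each member was read from a fit over all miRNAs that passed a filter on low counts (quasi-likelihood test of edgeR, p-values adjusted by Benjamini-Hochberg). All 6 members passed this filter. None of them was called at an adjusted p under 0.05, in a test in which 0 of 227 miRNAs (0%) were called, and none had an unadjusted p under 0.05, against 8 of 227 (3.52%). DESeq2 called 0 members, where it called 1.79% of the miRNAs with an adjusted p, and edgeR without a filter called 0 members, where it called 1.93%. With limma 0 members and 0 of all miRNAs were called, and the miRNAs called by the other tools were all predicted ones. The adjusted p was 0.986 for each member. The shares of 0 members separated the diets without overlap, while this was so for 11 of 128 known miRNAs (8.59%), of which 5 were higher (3.91%) and 6 lower (4.69%) on the replacement diet.

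The largest fold change was that of bta-miR-30d, with a log2 value of 0.52 ± 0.51 (SE, n = 3 against 3, adjusted p = 0.986 by edgeR), replacement over control. Its 95% interval ran from -0.66 to 1.70. The log2 value of bta-miR-30e-5p was 0.28 ± 0.43 (SE), with an interval from -0.72 to 1.28. The other 4 lay between -0.09 for bta-miR-30f and 0.03 for bta-miR-30b-5p. Their intervals were wide, with -1.55 to 1.61 for bta-miR-30b-5p, -0.97 to 0.88 for bta-miR-30a-5p, -1.46 to 1.50 for bta-miR-30c and -1.57 to 1.40 for bta-miR-30f. Changes within these intervals are not excluded by the 3 cows on each diet. The median over the 6 members was 0.02, and over the 128 known miRNAs tested it was 0.01. For bta-miR-30d the sign rested on replacement cow 1, since the log2 value was -0.08 without that cow, and with library size alone it was 1.08. For bta-miR-30e-5p the log2 value was 0.01 without control cow 3, 0.04 without replacement cow 1 and 0.77 without control cow 2. Scaling by library size alone moved the median of the known miRNAs to 0.61, and against that median 2 of the 6 members were higher. Against the median of their own fit, 4 were higher with the main scaling, with DESeq2 size factors or with known miRNAs alone. It was 6 with DESeq2, limma or no filter, and 5 in the fit blocked by cow number. These medians were over 276 known miRNAs with DESeq2 or no filter, 123 with known miRNAs alone and 128 in the other fits named here.

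**Figure D5:**
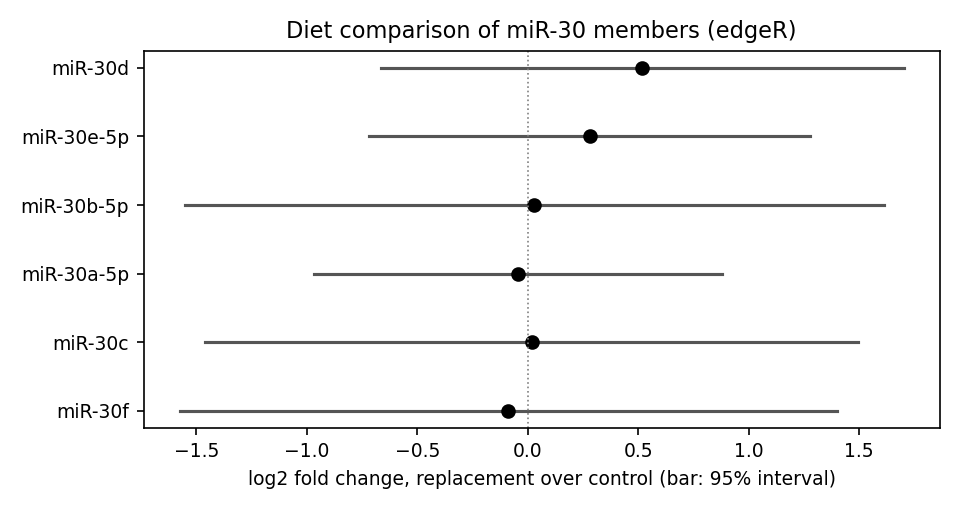
Log2 fold change of each miR-30 member between diets, replacement over control, with the 95% interval from edgeR (n = 3 cows on each diet). Every interval includes 0, with bta-miR-30d at 0.52 and the other members between -0.09 and 0.28.

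Other miRNAs related to the milk or to the role of the family behaved as follows in the same test. Of 12 miRNAs of a list on lipid metabolism, 8 were tested and 0 were called, with a median log2 value of -0.34, which was 0.30 with scaling by library size alone. The highest of the list were bta-miR-27b with a mean share of 2.44%, bta-miR-143 with 0.300% and bta-miR-24-3p with 0.276%. Of the 10 mammary epithelial markers 6 were tested, with a median of -0.77, and of the 6 red blood cell markers 5 were tested, with a median of -1.17. Without control cow 3 the red blood cell median was -0.24. Without replacement cow 2 the mammary epithelial median was -0.15, but there 7 miRNAs of that list were tested, so the 2 medians cover different sets. The leukocyte list had 7 tested miRNAs and a median of 0.13, which was -0.15 without control cow 1 and -0.27 without replacement cow 3. With library size alone, where the median of the known miRNAs was 0.61, the medians were 0.71 for leukocytes, -0.26 for the mammary epithelium and -0.40 for red blood cells. In none of these lists was a miRNA called by edgeR (smallest adjusted p = 0.986), and an unadjusted p under 0.05 was found for 1 in the lipid list and 1 in the red blood cell list.

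Among the 45 known miRNAs outside the family with at least 100 counts in every cow, the share of bta-miR-191 followed that of the family most closely, with r = 0.914 between the log2 shares and rho = 0.829 over 6 cows. It held 11.3%, 17.5% and 8.78% in control cows 1 to 3 and 20.9%, 15.5% and 10.7% in replacement cows 1 to 3. After it came bta-miR-151-5p with r = 0.854 and bta-miR-423-3p with r = 0.842. Without the 2 cows with the family share farthest from the median, r was 0.714 for bta-miR-191, 0.644 for bta-miR-151-5p and 0.793 for bta-miR-423-3p, and others were higher, with bta-miR-26a at 0.902, a miRNA named after its value was seen. At the other end, bta-miR-320a had r = -0.922, bta-miR-126-3p, a miRNA of the vascular endothelium, r = -0.911 and bta-miR-486, an erythroid miRNA, r = -0.908. These miRNAs were picked for their likeness or unlikeness, so no test is given, and all shares of a cow have the same total and depth. The share of bta-miR-486 was 11.3% in control cow 3, where the family was lowest, and 4.10% in replacement cow 1, where it was highest.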

How the data were processed

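Small RNA libraries of milk EVs from 6 cows were analysed. By their methods, the authors cleaned the reads with Cutadapt 1.14, filtered against Rfam, took known names from miRBase and used miRDeep2 for predictions. The submitters' processing notes name Bowtie and ARS-UCD1.2. The authors deposited raw counts per mature miRNA and the same values as RPM under the name TPM. Their table of fold changes and p-values between diets was not used. No 3p arm was among the rows analysed here, so arms were not compared.

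Shares of known counts, Wilson 95% intervals and exact permutation tests were computed with scipy 1.17.1. Ratios for the order of members had 0.5 added to both counts. Diets were compared with edgeR 4.0.16 in R 4.3.3 (TMM, default low-count filter, adjusted p under 0.05) and, as alternatives, DESeq2 1.42.0 and limma 3.58.1. The edgeR test and the sign-flip test were also run on simulated data, and the other tests were not. No pair of cows on a diet agreed within sampling noise.

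Named miRNAs were the members, relatives within 2 differences, the 3 most and 3 least like the family, and up to 3 of each list. The members and lists were chosen with earlier results of these data known.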

Additional observations from a re-analysis of the deposited data

Results flagged for a closer look

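Of 28 measures examined for a single outlying cow, among them the share, the RPM and the part of the family of each member, 1 had such a cow, where chance gives about 1 in 20. It was the summed share of the red blood cell list in control cow 3, 20.0% against 6.46% to 10.9% in the other cows. In this cow the family share was the lowest, at 3.77%, and with this list left out of the total the mean family share over the 6 cows was 5.77%.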

How the results depend on the processing

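The number of miR-30 members called by diet was 0 under all alternatives run, which were other tools, normalizations and filters, known miRNAs alone, the replicate block with the cow number (0 members called) and each cow left out. No label says that the cow numbers mark pairs, so the numbers were not taken as pairs. The deviations of same-numbered cows from their diet means correlated at -0.11, -0.16 and 0.18. Cows with unlike numbers gave -0.26 to 0.32. Deviations from a mean of 3 cows sum to 0, so these values cannot exclude pairs. The total decided the level of the family. With all listed miRNAs as the total, the family held 1.54%, with a difference between diets of 0.929 percentage points, and the shares of its members were lower too. The mean family share was 5.08% to 5.46% without 1 of the control cows and 4.81% to 5.22% without 1 of the replacement cows, and the difference between diets ran from 0.344 to 1.53 percentage points when 1 cow was left out. The mean log2 ratios of the 5 steps in the order of the members kept their sign without each cow in turn. That of bta-miR-30c over bta-miR-30f was only 0.11 without control cow 2, and the lower steps went both ways between cows.

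Of 78 alternative diet fold changes of single members, 21 had the opposite sign, with no call on either side, and none of them was of bta-miR-30e-5p, whose log2 value was 0.01 to 0.77 with 1 cow left out and 0.87 with library size alone. For bta-miR-30b-5p the log2 value was -0.0167 with limma and -0.00706 without a filter, and -0.73 to 0.84 when 1 cow was left out. For bta-miR-30a-5p it was 0.0558 with DESeq2, 0.00864 with limma, 0.0421 with DESeq2 size factors, 0.59 with library size alone and 0.0012 without a filter, and -0.17 to 0.14 with 1 cow left out. For bta-miR-30c it was -0.0066 without a filter, and -0.38 to 0.76 with 1 cow left out. For bta-miR-30f it was 0.16 with limma, 0.0016 with DESeq2 size factors, 0.51 with library size alone and 0.0829 with the replicate block, and -0.34 to 0.62 with 1 cow left out. For bta-miR-30d it was -0.0843 to 0.97 with 1 cow left out and 1.08 with library size alone. The cause of these changes of sign was not tested. Over all miRNAs, DESeq2 called 7 and edgeR without a filter 15, where edgeR with the filter called 0 (8 at an unadjusted p under 0.05).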
